A study of Mus musculus with 6 samples.

Results

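The 8 genes described here are parts of the transforming growth factor beta (TGF-beta) pathway in T cells and other cells sorted from mouse brain tumors. They are the ligand gene Tgfb1, the integrin gene Itgav, the receptor genes Tgfbr1 and Tgfbr2, the signal transducer Smad3, the inhibitory Smad7, and the co-repressors Ski and Skil. They were chosen by name, as rows of the deposited matrices, and make up 8 of the 32285 genes measured. The mice were wild-type C57BL/6J animals aged 6 to 8 weeks that carried intracranial tumors of CT2A, a mouse glioma line. CD3-positive T cells with CD4 or CD8 on their surface were taken by sorting from tumors of 16 mice at day 13, in pools of 4 mice, and from 4 mice at day 19. Each day has 1 single-cell capture, read as gene expression, antibody tag and T cell receptor (TCR) libraries, which gives 6 samples. The labels name no treatment, and no tumor-free group was analysed here. All groups carry the same tumor line, and a day cannot be told apart from its capture.

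As background, TGF-beta is secreted as a latent complex, bound to its own propeptide and often to a carrier protein. Integrins that contain the alpha v chain, the product of Itgav, release the active ligand from that complex when alpha v pairs with the beta 6 or beta 8 chain. Active ligand binds the type II receptor, encoded by Tgfbr2, which then phosphorylates the type I receptor, encoded by Tgfbr1. The type I receptor phosphorylates SMAD2 and SMAD3, which enter the nucleus with SMAD4. SMAD7 is an inhibitory SMAD whose gene is itself induced by the pathway, and SKI and SKIL (SnoN) are repressors that bind the SMADs. In T cells the pathway restrains effector function and favours the Foxp3-positive regulatory state and tissue residency, and in the brain it maintains microglia.

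The day-13 capture holds 144565182 gene UMIs in 736611 barcodes and the day-19 capture 81224453 in 735849. UMIs (unique molecular identifiers) count the RNA molecules captured. Barcodes with at least 5000 gene UMIs and at most 10% mitochondrial UMIs were kept, 8878 at day 13 and 4667 at day 19, and 62 barcode sequences were kept on both days. A kept barcode listed in a TCR contig table counted as CD8 when it held a Cd8a or Cd8b1 UMI and no Cd4 UMI, and as CD4 in the reverse case. This gave 2959 and 1800 CD8 barcodes and 797 and 794 CD4 barcodes, at day 13 and day 19 in this order, which holds for all paired values that follow. Another class, of 1017 and 343 barcodes, lay outside the contig tables and held no UMI of Cd3d, Cd3e or Cd3g. At day 13 Cd3e stood at 1032 UMIs per 1000000 (CPM) in CD8 barcodes, 737 in CD4 barcodes and 0 in the class without Cd3, which the class rule fixes. Foxp3, the regulatory T cell factor, stood at 133 CPM in CD4 and 9.31 in CD8 barcodes at day 13. CD8 barcodes were split by Pdcd1, which encodes the receptor PD-1, and by Tcf7, which encodes the factor TCF1 of progenitor-like cells. CD4 barcodes were split by Foxp3, and those without it by Pdcd1. A barcode was positive with at least 1 UMI, so deeper barcodes were called positive more often: median gene UMIs were 9185 and 11963.5 in Pdcd1+ CD8 barcodes and 6856 and 8048 in Pdcd1- ones.

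Levels are the summed UMIs of a gene per 1000000 summed gene UMIs of a class, and ratios are on the log2 scale with exact 95% Poisson intervals. Those intervals cover counting error only. The contig tables come in 4 sets per day, called contig sets 1 to 4, and levels are also given per set. The sets are not clean replicates: of the expanded clonotypes of a set, 3.57% to 10.9% also occurred in another set at day 13 and 30.3% to 38.7% at day 19. With 1 capture per day there is no test of a difference over samples, and none is given. A gene is called changed when its ratio is past 1.5-fold and it has at least 100 UMIs in the 2 sums together. For comparisons made within a day, the ratio has to be past 1.5-fold in the same direction on both days. Beside each count of the 8 genes stands the share of all genes with enough UMIs that met the same rule.

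Many barcodes of T cells also held RNA typical of macrophages, and several of the 8 genes had other values when such barcodes were left out. At least 5 UMIs of Lyz2, Apoe, C1qa, C1qb, C1qc and Csf1r together were found in 12.2% and 23.7% of CD8 barcodes, 40.0% and 57.3% of CD4 barcodes, and 65.1% and 67.3% of barcodes without Cd3. The summed level of 11 myeloid genes was 5724 and 6252 CPM in CD8 barcodes and 21786 and 20971 CPM in CD4 barcodes. It was 51229 and 50906 CPM in the class without Cd3, and 14174 and 13173 CPM in barcodes of 10 to 100 UMIs, taken here as free RNA. Contig set 1 held the highest level among CD8 barcodes on both days, at 8628 and 10010 CPM. No doublet caller was run. Contig barcodes with both Cd4 and a Cd8 gene, 237 and 245, and those with neither, 639 and 376, were left out of both T cell classes. Those with neither had median gene UMIs of 6786 and 7514.5. Results that moved in T barcodes with under 5 of these macrophage UMIs are given beside the main values.

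On the mouse build GRCm38.p6, whose chromosomes are those of mm10, the RefSeq gene Tgfb1 (ENSMUSG00000002603) spans chr7:25687002-25705077 and Itgav (ENSMUSG00000027087) spans chr2:83722303-83806917. Tgfbr1 (ENSMUSG00000007613) spans chr4:47353222-47414926 and Tgfbr2 (ENSMUSG00000032440) spans chr9:116087695-116175363. Smad3 (ENSMUSG00000032402) spans chr9:63646766-63757994, the same chromosome as Tgfbr2. Smad7 has the identifier ENSMUSG00000025880. Ski (ENSMUSG00000029050) spans chr4:155154075-155222535 and Skil (ENSMUSG00000027660) spans chr3:31095058-31122923.

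Of the 8 genes, Itgav and Tgfbr2 differed in opposite directions between Foxp3+ and Foxp3- CD4 barcodes on both days, so sequence before an annotated start of each is shown. Each run is the 250 bases before 1 annotated transcript start, from RefSeq on GRCm38.p6, read 5′ to 3′ along the gene. Itgav is on the plus strand, with the window at chr2:83724147-83724396, which lies inside the gene span given above, before a start internal to it, and Tgfbr2 is on the minus strand, with the window at chr9:116175364-116175613. Capitals mark the SMAD box CAGAC and the core GGAAG of ETS family sites, searched on both strands, so that a capital CTTCC is GGAAG on the other strand.
Itgav: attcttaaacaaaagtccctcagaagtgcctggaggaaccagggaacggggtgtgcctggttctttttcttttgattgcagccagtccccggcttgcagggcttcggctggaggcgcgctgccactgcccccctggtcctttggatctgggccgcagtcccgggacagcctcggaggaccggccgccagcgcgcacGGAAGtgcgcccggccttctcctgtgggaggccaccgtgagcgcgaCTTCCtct
Tgfbr2: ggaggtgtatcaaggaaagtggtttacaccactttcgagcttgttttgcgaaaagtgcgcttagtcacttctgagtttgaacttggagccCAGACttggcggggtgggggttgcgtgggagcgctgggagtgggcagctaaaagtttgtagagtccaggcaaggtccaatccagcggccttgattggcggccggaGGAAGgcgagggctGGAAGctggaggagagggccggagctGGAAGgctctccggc
The Itgav window held GGAAG at positions -54 to -50 and, on the other strand, at -8 to -4, and it held no CAGAC. The Tgfbr2 window held 1 CAGAC, at -160 to -156, and 3 GGAAG, at -55 to -51, -41 to -37 and -15 to -11. Neither window held the AP-1 motif TGANTCA or the GC box CCGCCC. Such short motifs are common: among 27018 promoter windows of the same length, 42.1% held CAGAC, 63.6% held GGAAG, 32.9% held CCGCCC and 6.87% held TGANTCA. GC content was 64.4% for Itgav and 58.4% for Tgfbr2, against a median of 52.0% over all windows. A match of letters is a description and no sign of binding. Windows of 6 of the 8 genes were matched, and those of Tgfb1 and Ski held 5 GC boxes each, at a GC content of 75.2% and 87.6%.

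**Figure D1:**
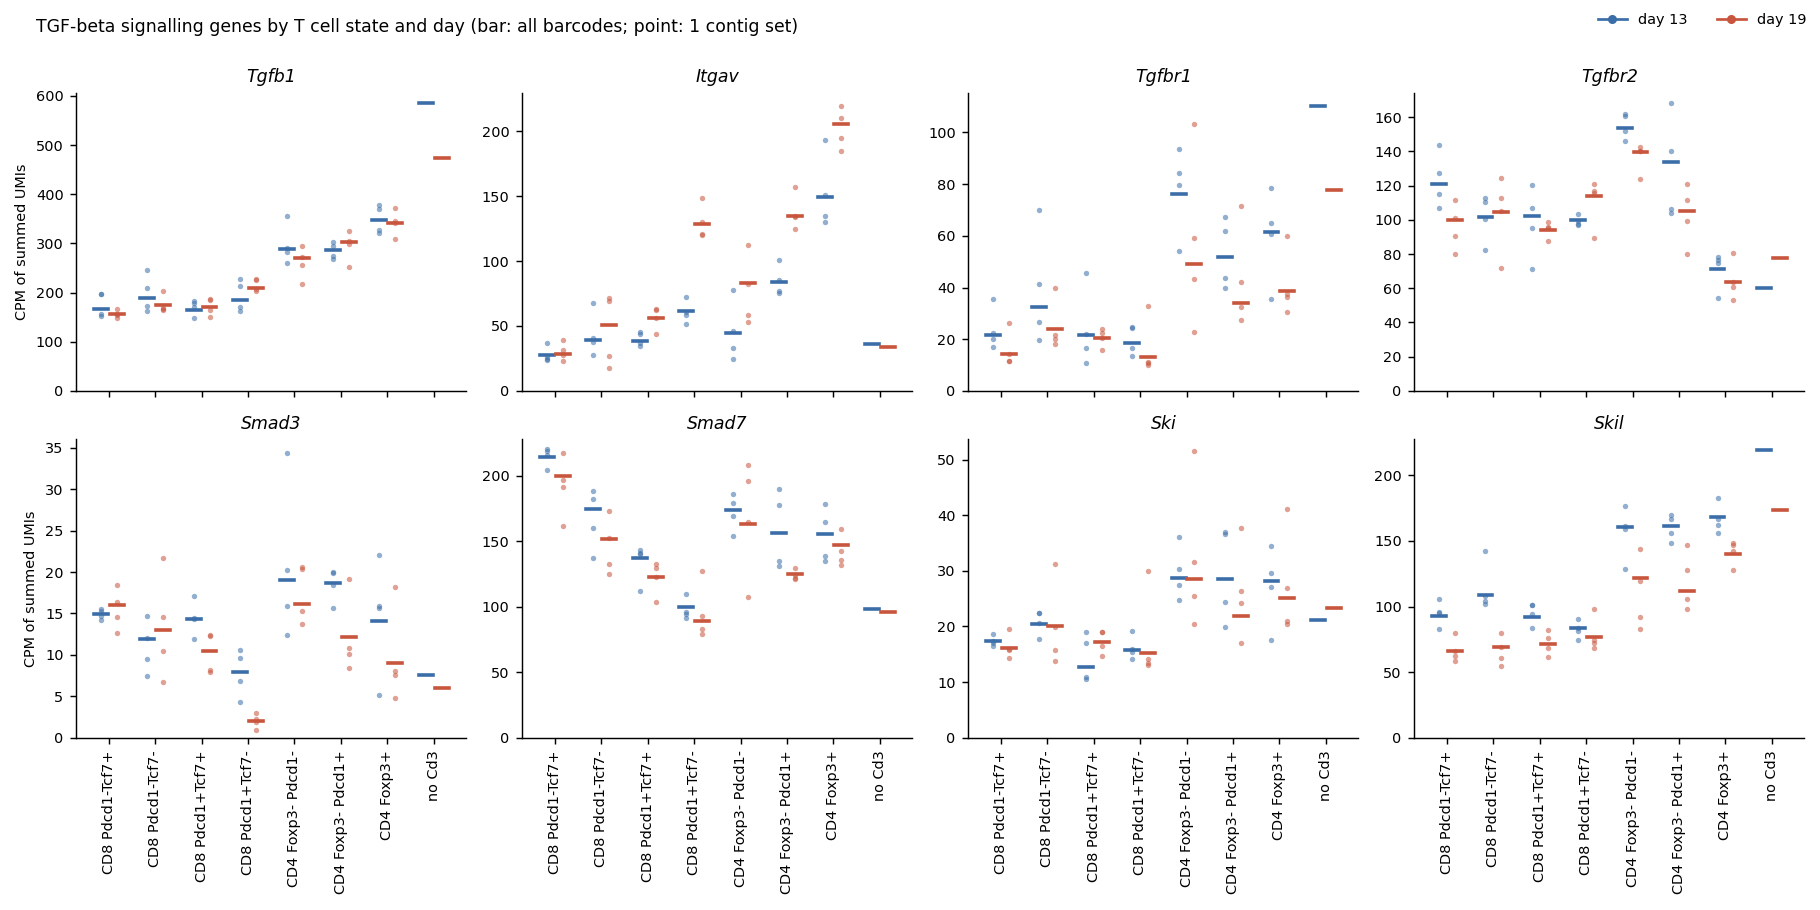
Levels in CPM (UMIs per 1000000, linear axis from 0) of the 8 genes in 7 T cell states and in barcodes without Cd3, at day 13 (blue) and day 19 (red). Bars are all barcodes of a class and points are the 4 contig sets of a day. Itgav was highest in Foxp3+ CD4 barcodes on both days (149.6 and 205.2 CPM), while Tgfb1, Tgfbr1 and Skil were highest in barcodes without Cd3.

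Over all CD8 barcodes, Itgav was the gene of the 8 called between the days. The make-up of this class also differed: Pdcd1+Tcf7- barcodes were 23.5% of it at day 13 (exact 95% binomial interval 22.0 to 25.1) and 40.1% at day 19 (37.8 to 42.4), and Pdcd1-Tcf7+ barcodes 45.2% and 34.7%. Ratios over the whole class therefore mix the shares of the states with the levels in them, and levels by state follow. Its level was 42.1, 40.2, 36.7 and 51.1 CPM in contig sets 1 to 4 at day 13 and 91.2, 90.1, 72.1 and 62.0 CPM at day 19. All 4 day-19 sets stood above all 4 day-13 sets. Over all CD8 barcodes it went from 41.4 CPM (95% interval 39.1 to 43.8) to 80.4 CPM (76.7 to 84.3), a log2 ratio of 0.96 (0.85 to 1.07). The median log2 ratio over all genes was -0.04. Thus 1 of the 8 genes rose and 0 fell past 1.5-fold, where 11.9% of 10638 genes did either, 5.25% up and 6.61% down. The share of CD8 barcodes with an Itgav UMI went from 15.2% to 25.4% when each barcode was thinned to 5000 UMIs, and from 24.5% to 43.4% unthinned. In barcodes without Cd3 the thinned share was 15.9% and 12.5%, so the day-13 share in CD8 barcodes was no higher than there. Barcodes of 10 to 100 UMIs, taken as free RNA, held Itgav at 51.8 and 78.5 CPM, near the CD8 level on both days. The part of free RNA in the day difference was not tested.

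The other 7 genes stayed under 1.5-fold in CD8 barcodes. Tgfb1, the ligand gene, stood at 174.8 and 184.7 CPM, a log2 ratio of 0.08 (0.02 to 0.14). The type II receptor gene Tgfbr2 stood at 108.6 and 106.0 CPM (-0.03; -0.11 to 0.04), and the type I receptor gene Tgfbr1 at 21.9 and 15.8 CPM (-0.47; -0.67 to -0.28). Smad7 stood at 158.9 and 133.1 CPM (-0.26; -0.32 to -0.19) and Skil at 91.5 and 72.2 CPM (-0.34; -0.43 to -0.25). Smad3 was sparse, with 350 and 183 UMIs, and stood at 12.3 and 8.53 CPM (-0.53; -0.79 to -0.27), while Ski stood at 16.3 CPM on both days.
Without regard to size, the 4 sets of one day lay apart from the 4 of the other for Itgav (higher at day 19) and for Smad3, Smad7 and Skil (lower at day 19), and 23.9% of all genes had sets apart in this way. Smad7 ranged from 148.4 to 168.1 CPM over the day-13 sets and from 127.8 to 143.1 over the day-19 sets. Skil ranged from 87.8 to 101.1 CPM and from 63.9 to 84.7 CPM.

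The day difference of Itgav was not even over the CD8 states. In Pdcd1+Tcf7- barcodes, the state with PD-1 and without the progenitor factor, Itgav stood at 51.4, 60.4, 58.6 and 72.2 CPM in the day-13 sets and at 148.4, 130.3, 119.7 and 120.9 CPM in the day-19 sets. Every day-19 set was above every day-13 set, and the log2 ratio was 1.07 (0.92 to 1.21). In Pdcd1-Tcf7+ barcodes Itgav stood at 24.0, 24.3, 26.4 and 36.6 CPM at day 13 and at 39.2, 27.6, 31.3 and 23.0 CPM at day 19. Here the sets overlapped and the log2 ratio was 0.05 (-0.23 to 0.33). The intervals of these 2 ratios did not overlap, but the difference between them was not tested. Pdcd1+Tcf7+ barcodes, the progenitor-like state, lay between, at 38.1 and 55.7 CPM (0.55; 0.25 to 0.85), and Pdcd1-Tcf7- barcodes stood at 39.2 and 50.4 CPM (0.36; -0.01 to 0.73). Itgav was thus called in 1 of the 4 CD8 states, where 13.1% of genes were called in Pdcd1+Tcf7- barcodes, 4.75% up and 8.32% down. In T barcodes with under 5 macrophage UMIs the ratio in that state was 1.01 (0.85 to 1.18).

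Smad3, the SMAD activated by the type I receptor, was low in the same state. In Pdcd1+Tcf7- barcodes it stood at 9.58, 10.6, 4.31 and 6.83 CPM in the day-13 sets and at 0.910, 1.92, 2.96 and 2.25 CPM in the day-19 sets. All 4 day-19 sets lay below all 4 day-13 sets, while among genes with at least 100 UMIs in this state 15.9% had sets apart between the days and 10.6% had them apart and lower at day 19. The sums were 70 and 20 UMIs, or 7.94 CPM (6.19 to 10.0) and 2.05 CPM (1.25 to 3.16), with a log2 ratio of -1.96 (-2.75 to -1.22). With 90 UMIs in all it missed the minimum of 100 and was not called. In Pdcd1-Tcf7+ barcodes Smad3 was 14.9 and 16.0 CPM, with sets from 14.2 to 15.5 and from 12.7 to 18.5 that overlapped. The share of Pdcd1+Tcf7- barcodes with a Smad3 UMI, thinned to 5000 UMIs, was 4.75% and 1.66%.
Between the days, 1 gene fell in Pdcd1-Tcf7+ barcodes (Tgfbr1, where 11.2% of genes were called, 4.97% up and 6.25% down) and 1 in Pdcd1-Tcf7- barcodes (Skil, where 13.0% were called, 4.34% up and 8.66% down). None of the 8 was called in Pdcd1+Tcf7+ barcodes, where 11.7% were, 5.85% up and 5.82% down. With under 5 macrophage UMIs, Skil was called there, at 82.4 and 52.0 CPM (-0.66; -0.99 to -0.35), and 16.6% of genes were. With under 0.5% myeloid UMIs, Itgav was called there instead (0.63; 0.27 to 0.99), where 15.8% of genes were called and 7.25% up, and Tgfbr1 in Pdcd1-Tcf7+ (-0.53) and Skil in Pdcd1-Tcf7- barcodes (-0.53) were not, where 9.62% and 13.2% of genes were called. Tgfbr1 was at 21.6 and 14.3 CPM in the first state and Skil at 108.7 and 68.8 CPM in the second.

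**Figure D2:**
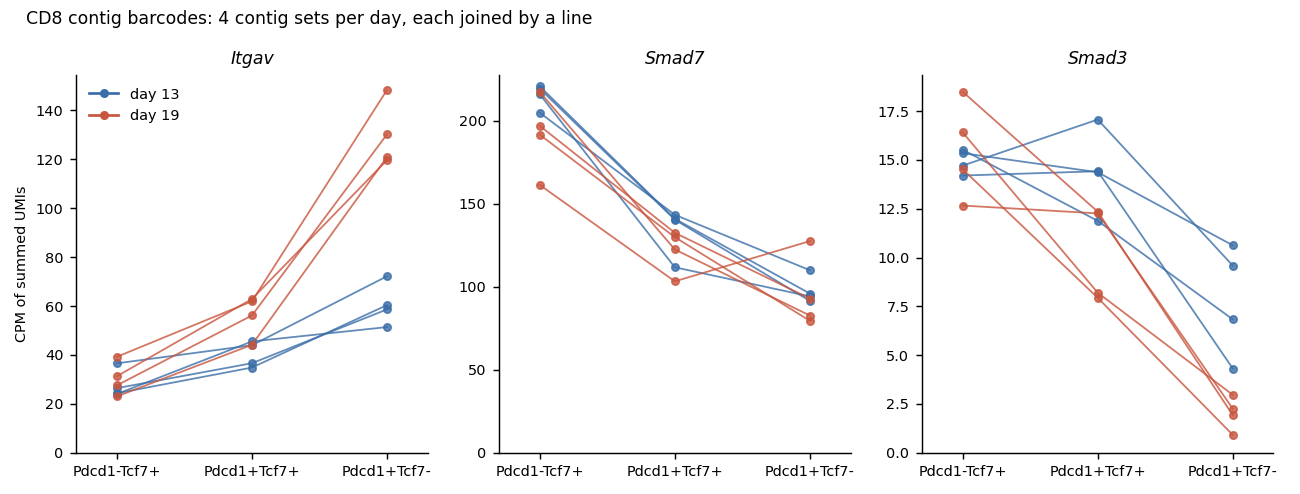
Levels in CPM (UMIs per 1000000, linear axis) of Itgav, Smad7 and Smad3 in 3 CD8 states, with each of the 4 contig sets per day as 1 line (blue day 13, red day 19). Itgav was higher in Pdcd1+Tcf7- than in Pdcd1+Tcf7+ barcodes in every set, reaching 119.7 to 148.4 CPM at day 19, and Smad3 was lower there in every set.

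Within a day, Pdcd1+ CD8 barcodes held more Itgav and less Smad7 than Pdcd1- ones. Itgav was 52.4 against 30.1 CPM at day 13 (log2 ratio 0.80; 0.63 to 0.97) and 111.3 against 34.4 CPM at day 19 (1.69; 1.51 to 1.88). Smad7, the inhibitory SMAD, was 112.9, 123.6, 112.8 and 99.3 CPM in the Pdcd1+ barcodes of the day-13 sets and 201.0, 199.1, 212.8 and 202.5 CPM in the Pdcd1- ones. At day 19 it was 118.6, 88.4, 94.7 and 105.3 CPM against 150.0, 205.2, 173.5 and 186.8 CPM. The 2 states did not overlap on either day, as held for 14.4% of all genes, with log2 ratios of -0.84 (-0.93 to -0.75) and -0.94 (-1.05 to -0.84). These are 1 gene up and 1 down of 8, where 10.4% of genes were called, 7.57% up and 2.88% down. The Itgav call was lost among barcodes with at least 10000 gene UMIs, and the Smad7 call without cycling barcodes.
Smad3 was 10.4 against 14.2 CPM at day 13 (-0.44; -0.76 to -0.13) and 4.05 against 15.2 CPM at day 19 (-1.91; -2.40 to -1.43), which missed 1.5-fold on the first day. Itgav, Smad7 and Smad3 had the same direction in 8 of 8 sets, as did 26.3% of all genes. The remaining 5 genes stayed within -0.31 and 0.32 on both days. Shares with a Smad7 UMI in barcodes thinned to 5000 UMIs were 42.3% and 38.0% in Pdcd1+ barcodes and 59.9% and 55.2% in Pdcd1- ones. Unthinned, they were 63.6% and 64.7% against 71.3% and 72.7%.

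Among Pdcd1+ barcodes, those without Tcf7 held more Itgav than those with it. Itgav in the Pdcd1+Tcf7+ barcodes of the 4 sets was 45.5, 34.8, 36.6 and 44.0 CPM at day 13 and 61.9, 56.1, 62.9 and 44.2 CPM at day 19. Against the Pdcd1+Tcf7- values given above, these sets did not overlap on either day, as held for 3.89% of all genes. The log2 ratios were 0.69 (0.46 to 0.93) and 1.21 (0.98 to 1.45). Of the 7 genes with enough UMIs, 1 rose and 0 fell, where 4.24% of genes were called, 2.09% up and 2.14% down. Itgav had the same direction in 8 of 8 sets, as did 11.8% of all genes.
Smad3 missed the UMI minimum for this split, with log2 ratios of -0.85 (-1.34 to -0.37) and -2.35 (-3.23 to -1.50). Smad7 was 137.3 against 99.5 CPM at day 13 (-0.46; -0.61 to -0.32) and 122.9 against 89.0 CPM at day 19 (-0.47; -0.64 to -0.29), the Tcf7+ value first. It did not keep that order in every set: day-19 set 1 held 127.5 CPM in Pdcd1+Tcf7- and 103.2 CPM in Pdcd1+Tcf7+ barcodes.
Median depth was 10311 and 11964 gene UMIs in Pdcd1+Tcf7- barcodes and 8479 and 11744 in Pdcd1+Tcf7+ ones. With every barcode thinned to 5000 UMIs before its state was read, the Itgav ratios were 0.80 and 1.96 and the call was kept. Among barcodes with at least 10000 gene UMIs they were 0.53, under 1.5-fold, and 1.06.

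**Figure D3:**
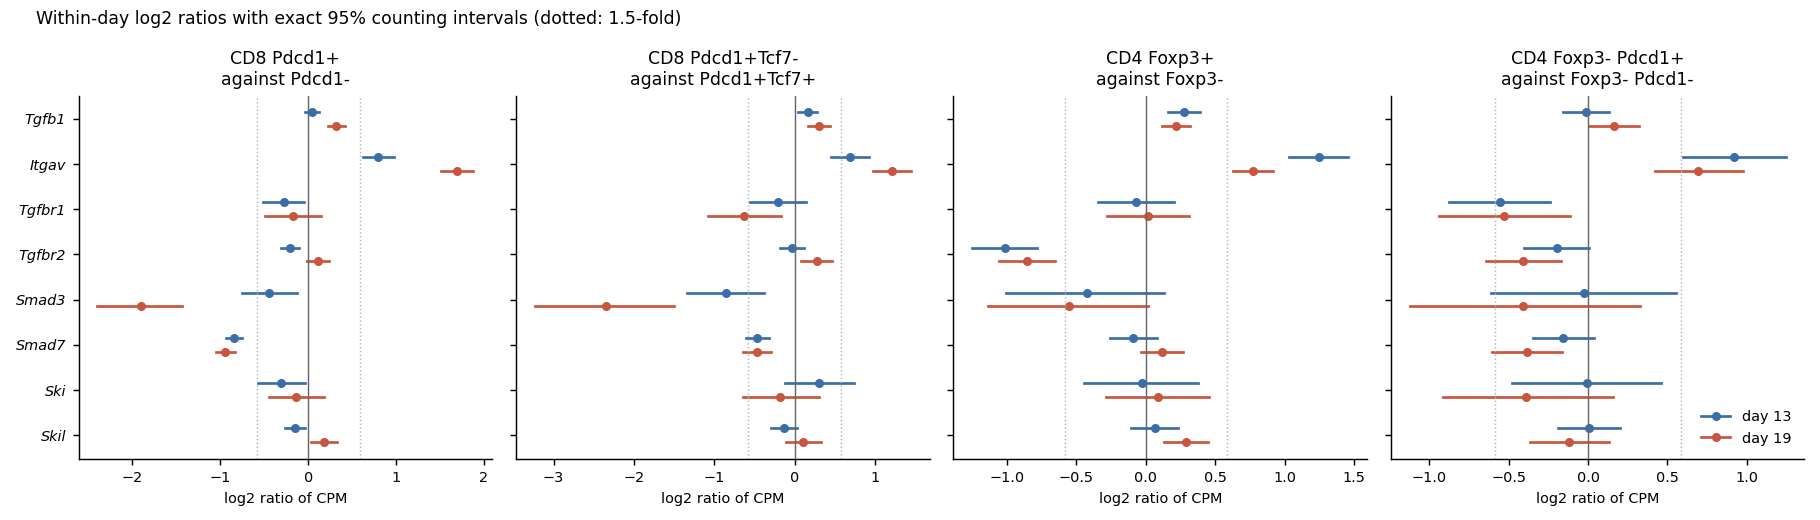
Log2 ratios of the 8 genes in 4 within-day comparisons, day 13 in blue and day 19 in red, with exact 95% counting intervals, and dotted lines at 1.5-fold. Itgav was past 1.5-fold upward in all 4 panels on both days, and Smad7 and Tgfbr2 were called downward in 1 panel each. Smad3 was also past 1.5-fold downward on both days in Pdcd1+Tcf7- against Pdcd1+Tcf7+ barcodes, with too few UMIs to be called.

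CD4 barcodes likewise held more Itgav at day 19, and Foxp3+ barcodes were 28.9% and 36.1% and Foxp3- Pdcd1- barcodes 39.4% and 21.2% of them. The 4 sets stood at 99.8, 80.1, 88.7 and 101.4 CPM at day 13 and at 178.8, 162.1, 140.1 and 154.8 CPM at day 19, without overlap. The log2 ratio was 0.79 (0.67 to 0.92), and 0.76 (0.57 to 0.95) in the 478 and 339 CD4 barcodes with under 5 macrophage UMIs. Tgfbr1 fell from 63.6 to 38.4 CPM (-0.73; -0.92 to -0.54) and Smad3 from 17.3 to 11.4 CPM (-0.60; -0.97 to -0.24). With 1 gene up and 2 down of 8, 12.2% of 9426 genes were called, 6.59% up and 5.62% down, and the median log2 ratio over all genes was 0.02.
The fall of Tgfbr1 missed 1.5-fold with barcodes down to 1000 gene UMIs (-0.41) and with contig sets weighted equally (-0.57). That of Smad3 missed it with at least 10000 gene UMIs (-0.51), thinned (-0.58), without cycling barcodes (-0.44) and without the 5% deepest barcodes (-0.58).
In CD4 barcodes with under 5 macrophage UMIs neither receptor nor SMAD gene was called: Tgfbr1 stood at 18.9 and 17.8 CPM (-0.09; -0.60 to 0.41) and Smad3 at 19.6 and 18.4 CPM (-0.09; -0.59 to 0.40). The 8 sets also overlapped for Tgfbr1, at 71.9, 72.9, 43.9 and 68.3 CPM and at 67.2, 36.4, 36.0 and 33.1 CPM. For Smad3 they were 18.0, 16.9, 17.8 and 16.8 CPM and then 7.24, 10.1, 19.0 and 9.75 CPM, and the call was lost without day-19 set 1, 2 or 4.
Skil had sets apart, at 151.0 to 168.6 and 121.6 to 140.6 CPM (-0.37; -0.49 to -0.26), as did Tgfbr2, at 106.6 to 135.8 and 84.8 to 99.9 CPM (-0.39; -0.52 to -0.26), and Smad7 (-0.21; -0.31 to -0.10). With Itgav these are 4 genes with CD4 sets apart between the days, where 18.6% of all genes were. Tgfb1 had a log2 ratio of 0.04 (-0.04 to 0.11) in all CD4 barcodes and 0.31 (0.18 to 0.44) in those with under 5 macrophage UMIs. Ski stood at 28.5 and 24.4 CPM (-0.23; -0.49 to 0.04).

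By CD4 state, Itgav was higher at day 19 in Foxp3- Pdcd1- barcodes (44.3 and 83.2 CPM; 0.91, 0.55 to 1.27) and in Foxp3- Pdcd1+ barcodes (83.9 and 134.9 CPM; 0.69, 0.46 to 0.92). In Foxp3+ barcodes it stood at 149.6 and 205.2 CPM, a log2 ratio of 0.46 (0.28 to 0.63) that was not called. Tgfbr1 was lower at day 19 in all 3 states, and called in each, at 76.2 and 49.1, 51.8 and 34.0, and 61.5 and 38.6 CPM. These are 1 gene up and 1 down in Foxp3- Pdcd1- barcodes, where 9.03% of genes were called (3.57% up, 5.47% down), and 1 up and 1 down in Foxp3- Pdcd1+ barcodes, where 12% were (4.86% up, 7.12% down). In Foxp3+ barcodes 0 were up and 1 down, where 12.4% of genes were called (6.71% up, 5.66% down). In barcodes with under 5 macrophage UMIs, Tgfbr1 had too few UMIs to be called, with ratios of -0.17 (-1.57 to 1.09), 0.04 (-0.97 to 1.05) and -0.22 (-0.92 to 0.47). Itgav in Foxp3- Pdcd1- barcodes then had a ratio of 0.27 (-0.40 to 0.93), at 56 and 32 UMIs, and was not called. In that selection 2 calls were gained: Itgav in Foxp3+ barcodes, at 152.9 and 234.4 CPM (0.62; 0.37 to 0.87; 14.9% of genes called), and Skil in Foxp3- Pdcd1+ barcodes, at 157.4 and 104.3 CPM (-0.59; -0.91 to -0.28; 15.6% called). With under 0.5% myeloid UMIs the Itgav ratio in Foxp3+ barcodes was 0.25 (-0.02 to 0.52) and not called, Skil was called in Foxp3- Pdcd1+ barcodes (-0.62; 13.6% of genes called), and Tgfbr2 in Foxp3+ ones (-0.69; -1.20 to -0.19; 17.1% called).

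Foxp3+ CD4 barcodes, the regulatory T cell state, held more Itgav and less Tgfbr2 than Foxp3- CD4 barcodes. Itgav was 150.7, 134.9, 193.5 and 129.9 CPM in the Foxp3+ barcodes of the day-13 sets and 73.6, 56.1, 51.7 and 81.7 CPM in the Foxp3- ones. At day 19 it was 210.3, 219.5, 194.6 and 184.7 CPM against 119.4, 121.8, 107.0 and 129.1 CPM. The 2 states did not overlap on either day, as held for 3.48% of all genes. The log2 ratios were 1.24 (1.03 to 1.46) and 0.77 (0.63 to 0.91), and 1.39 (1.09 to 1.69) and 1.18 (0.92 to 1.44) with under 5 macrophage UMIs.
Tgfbr2, the receptor that binds the ligand, was 76.4, 78.0, 54.3 and 74.6 CPM in the Foxp3+ barcodes of the day-13 sets and 127.0, 144.1, 164.6 and 128.7 CPM in the Foxp3- ones. At day 19 it was 80.6, 63.5, 53.2 and 60.7 CPM against 92.5, 109.8, 128.3 and 119.6 CPM. Again the 2 states did not overlap. The log2 ratios were -1.01 (-1.25 to -0.78) and -0.86 (-1.06 to -0.65), and -1.24 and -1.05 with under 5 macrophage UMIs. Thinned to 5000 UMIs, 31.7% and 26.1% of Foxp3+ barcodes and 49.9% and 42.8% of Foxp3- barcodes held a Tgfbr2 UMI. Unthinned, the shares were 52.6% and 50.5% against 64.9% and 64.1%.
With 1 gene up and 1 down of 8, 3.87% of 7331 genes were called, 2.07% up and 1.8% down. Both genes, and Tgfb1, had the same direction in 8 of 8 sets, as did 9.21% of all genes. Tgfb1 was 348.2 against 287.8 CPM at day 13 (0.28) and 342.4 against 294.1 CPM at day 19 (0.22), the Foxp3+ value first, which is short of 1.5-fold. Smad3, Smad7, Ski and Skil stayed within -0.55 and 0.29.
Tgfbr1 was near equal over all barcodes, at log2 ratios of -0.07 and 0.01. With under 5 macrophage UMIs it was 28.5 against 13.6 CPM (1.06; 0.40 to 1.74) and 24.4 against 13.4 CPM (0.87; 0.09 to 1.66), on 43 against 37 and 33 against 27 UMIs, too few to be called. The 6 macrophage genes summed to 5561 and 7928 CPM in Foxp3+ and 7349 and 7941 CPM in Foxp3- barcodes, and the 11 myeloid genes to 24050 and 23572 CPM against 20705 and 18914 CPM. At least 5 macrophage UMIs were found in 37.8% and 59.6% of Foxp3+ and 40.9% and 56.0% of Foxp3- barcodes. Foxp3+ barcodes were deeper, with medians of 9611 and 14270 against 7890 and 9414 gene UMIs. Among barcodes with at least 10000 gene UMIs, the Itgav ratio was 0.95 and 0.56, and the second was under 1.5-fold. With every barcode thinned to 5000 UMIs before its state was read, it was 1.43 and 1.33.

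Among Foxp3- CD4 barcodes, those with Pdcd1 held more Itgav. The values were 100.7, 75.1, 77.2 and 85.5 CPM in the Pdcd1+ barcodes of the day-13 sets and 32.8, 46.1, 24.7 and 77.8 CPM in the Pdcd1- ones. At day 19 they were 134.4, 125.0, 134.0 and 156.9 CPM against 82.6, 112.6, 53.4 and 58.8 CPM. At day 13 the highest Pdcd1- set (77.8 CPM) lay above the lowest Pdcd1+ set (75.1 CPM). The log2 ratios were 0.92 (0.60 to 1.25) and 0.70 (0.42 to 0.98). Of 7 genes with enough UMIs, 1 rose and 0 fell, where 1.44% of genes were called, 1.15% up and 0.284% down. Itgav had the same direction in 8 of 8 sets, as did 5.74% of all genes. The call was lost at day 19 in barcodes thinned to 5000 UMIs (0.49) or without cycling barcodes (0.45), and without day-19 set 3 (0.54) or 4 (0.49). Tgfbr1 was lower in Pdcd1+ barcodes over all (-0.56 and -0.53), and near equal with under 5 macrophage UMIs (0.00 and 0.20), where its UMIs numbered 8 to 19 a state.

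CD4 barcodes held more Tgfb1, Itgav, Tgfbr1 and Skil than CD8 barcodes on both days. The counts of the 8 genes were 4 up and 0 down, where 18.4% of 10065 genes were called, 13.3% up and 5.15% down, with a median log2 ratio over all genes of 0.04 and 0.12. The log2 ratios were 0.81 and 0.77 for Tgfb1, 1.14 and 0.97 for Itgav, 1.53 and 1.28 for Tgfbr1, and 0.84 and 0.80 for Skil. Ski had 0.81 and 0.57 and missed 1.5-fold at day 19, and Smad3 had 0.49 and 0.42. Ski was called with barcodes down to 1000 gene UMIs, thinned to 5000 UMIs, and with contig sets weighted equally. It was also called without cycling barcodes and without the 5% deepest barcodes, and Smad3 was called when thinned. Tgfbr2 (0.15 and -0.20) and Smad7 (0.03 and 0.08) were near equal. Those 4 genes, Smad3 and Ski had the same direction in 8 of 8 sets, as did 37.2% of all genes.
CD4 barcodes also held more macrophage RNA, as given above, and in T barcodes with under 5 macrophage UMIs the Tgfbr1 ratio was 0.93 and 1.31, at 18.9 against 9.95 CPM and 17.8 against 7.19 CPM. Leaving out the barcodes with macrophage RNA thus took the Tgfbr1 level of CD4 barcodes from 63.6 to 18.9 CPM at day 13 and from 38.4 to 17.8 CPM at day 19. Itgav then stood at 92.2 against 40.2 CPM and 155.9 against 75.8 CPM (log2 ratios 1.2 and 1.04), and Skil at 149.9 against 83.9 CPM and 110.6 against 64.1 CPM (0.84 and 0.79). Smad3 passed 1.5-fold in these barcodes (0.65 and 1.10), giving 5 genes up, where 12.8% of genes were called. Tgfb1 had 0.61 and 0.74 there. With under 0.5% of UMIs from 11 myeloid genes, a limit chosen after the data were seen, Tgfb1 had 0.41 and 0.55 and was not called.

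**Figure D4:**
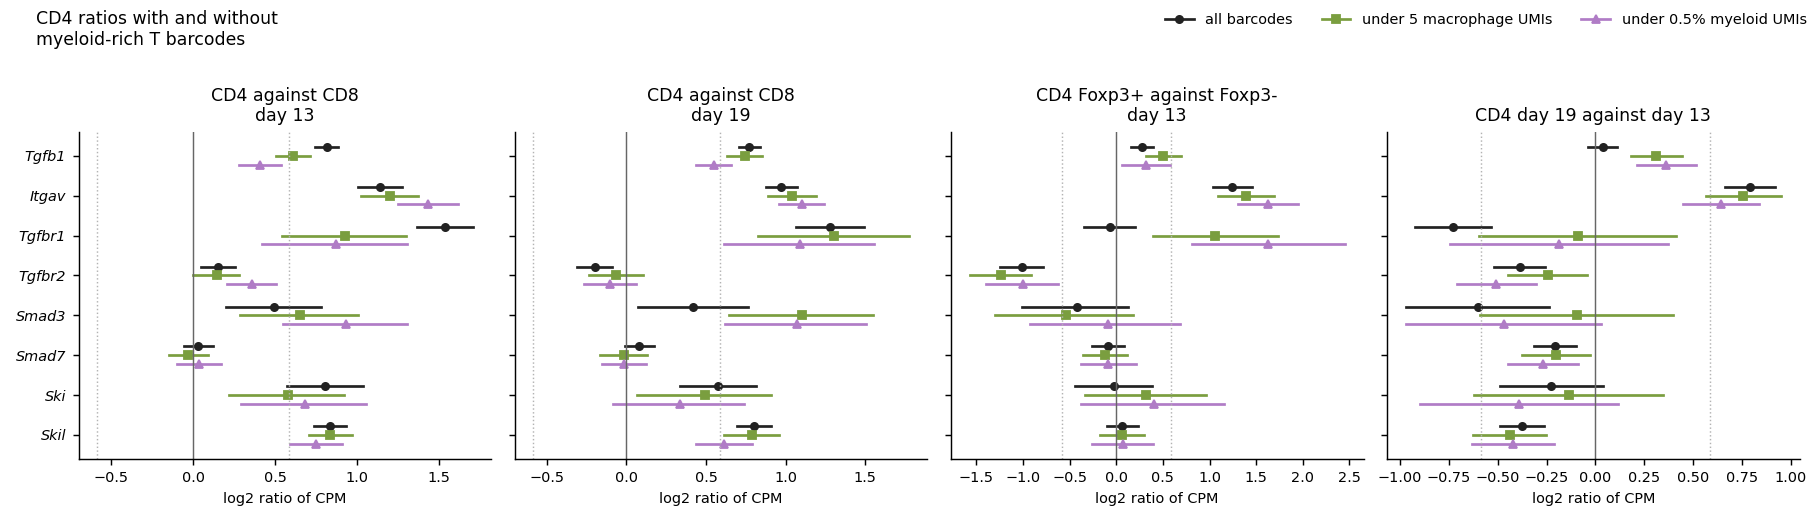
Log2 ratios of the 8 genes for CD4 against CD8 barcodes at day 13 and day 19, Foxp3+ against Foxp3- CD4 barcodes at day 13, and CD4 barcodes at day 19 against day 13, with exact 95% counting intervals. Symbols give all T barcodes, those with under 5 macrophage UMIs and those with under 0.5% myeloid UMIs. Itgav kept its direction in all 3 selections, and the day difference of Tgfbr1 in CD4 barcodes went from -0.73 to -0.09 with under 5 macrophage UMIs.

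The order of levels over the 7 T cell states and the class without Cd3 differed by gene. For Itgav it ran, at day 19, from Foxp3+ (205.2 CPM) to Foxp3- Pdcd1+ (134.9), CD8 Pdcd1+Tcf7- (128.8), Foxp3- Pdcd1- (83.2), CD8 Pdcd1+Tcf7+ (55.7), CD8 Pdcd1-Tcf7- (50.4), no Cd3 (33.5) and CD8 Pdcd1-Tcf7+ (28.3). The 2nd and 3rd, the 5th and 6th, and the 7th and 8th had overlapping counting intervals. At day 13 the same 3 states led and the same state was last, with the 4th to 7th overlapping.
Smad7 had another order. It was highest in CD8 Pdcd1-Tcf7+ barcodes (214.2 and 200.2 CPM) and among the lowest in CD8 Pdcd1+Tcf7- barcodes (99.5 and 89.0) and barcodes without Cd3 (98.2 and 95.6), which overlapped each other. Tgfbr2 was highest in Foxp3- Pdcd1- CD4 barcodes (153.4 and 139.8 CPM) and lowest in Foxp3+ CD4 barcodes (71.4 and 63.5) and barcodes without Cd3 (59.9 and 77.7).
Tgfb1 fell into 3 tiers on both days, with no Cd3 first (584.6 and 473.4 CPM), the 3 CD4 states next (270.8 to 348.2) and the 4 CD8 states last (156.0 to 210.3). Tgfbr1 and Skil had the same first class. For Ski, no 2 neighbours in the order had intervals apart on either day, over a range from 12.8 to 28.7 CPM. Smad3 likewise had overlapping neighbours throughout at day 13. At day 19 the lowest state, CD8 Pdcd1+Tcf7-, lay apart from the next (2.05 against 5.96 CPM in barcodes without Cd3).

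Barcodes without Cd3, most of them myeloid by their markers, held more Tgfb1, Tgfbr1 and Skil and less Smad3 than CD4 and CD8 barcodes together. Tgfb1 was 584.6 against 204.2 CPM at day 13 and 473.4 against 227.0 CPM at day 19 (log2 ratios 1.52 and 1.06). Tgfbr1 was 110.3 against 31.2 CPM and 77.7 against 23.1 CPM (1.82 and 1.75), and against T barcodes with under 5 macrophage UMIs the ratios were 3.29 and 3.09. Skil was 219.2 and 173.6 CPM (1.03 and 0.95). Smad3 was 7.62 against 13.4 CPM and 5.96 against 9.46 CPM (-0.82 and -0.67). These are 3 genes up and 1 down of 8, where 41.2% of 10380 genes were called, 17.3% up and 24.0% down, so being called in this comparison was common. The median log2 ratio over all genes was -0.22 and -0.15. Itgav stood at 35.9 and 33.5 CPM, below the T barcodes on both days (-0.55 and -1.66), and past 1.5-fold at day 19 only. A UMI of Tgfb1 was found in 79.9% and 80.8% of barcodes without Cd3 thinned to 5000 UMIs, against 48.8% and 52.6% of CD8 barcodes.

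The class without Cd3 was clustered with the 8 genes and the pathway lists left out, which gave 15 clusters of 22 to 206 barcodes. Clusters were named from marker genes alone, 6 remained unnamed, and day-19 numbers were small, so levels are given over both days with exact 95% counting intervals. They are descriptions of 1 sum each. Tgfb1 was highest in cluster 1, monocyte-like (206 barcodes), at 1289 CPM (1327 at day 13 and 1125 at day 19), and next in cluster 3, unnamed and led by Cd209a and Clec10a, at 822 CPM, and cluster 11, type 2 dendritic-like, at 723 CPM. It was lowest in cluster 6, mature dendritic-like, at 105 CPM. The macrophage-like cluster 4 stood at 463 CPM and the microglia-like cluster 5 at 407 CPM.
The microglia-like cluster (119 barcodes, 96 at day 13 and 23 at day 19) had the highest levels of both receptor genes. Tgfbr1 was 413 CPM there, 428.9 at day 13 and 349.8 at day 19, against 204 CPM in cluster 7, unnamed and led by Gpnmb and Spp1, and 190 CPM in the macrophage-like cluster. Tgfbr2 was 262 CPM there, against 194 CPM in cluster 13, unnamed and led by Igfbp7, Cxcl13 and Cldn5. The same cluster was highest for Smad7 (303 CPM; 321.0 and 231.4 by day), Ski (68.7 CPM) and Smad3 (27.5 CPM; interval 18.0 to 40.3, which covers the next value of 17.5 CPM in the NK-like cluster). Of the 7 genes with at least 100 UMIs over all clusters, 4 had their highest level in this cluster (Smad3 had fewer), as did 13.8% of 8192 genes, and Itgav (64.5 CPM) stood next to the highest, cluster 7 (65.9 CPM). Its median depth, 6614 gene UMIs, was among the lower ones.
The 2 mature dendritic-like clusters had the lowest Tgfbr2, at 8.38 and 4.04 CPM. Skil was 242 and 226 CPM in the 2 mature dendritic-like clusters, near the day-13 level of the whole class given above. It was 306 and 305 CPM in clusters 3 and 1. The NK-like cluster (52 barcodes), made of lymphocytes, had Tgfbr2 at 103 CPM, Smad7 at 182 CPM and Itgav at 61.3 CPM, next to 108.6, 158.9 and 41.4 CPM in day-13 CD8 barcodes.

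**Figure D5:**
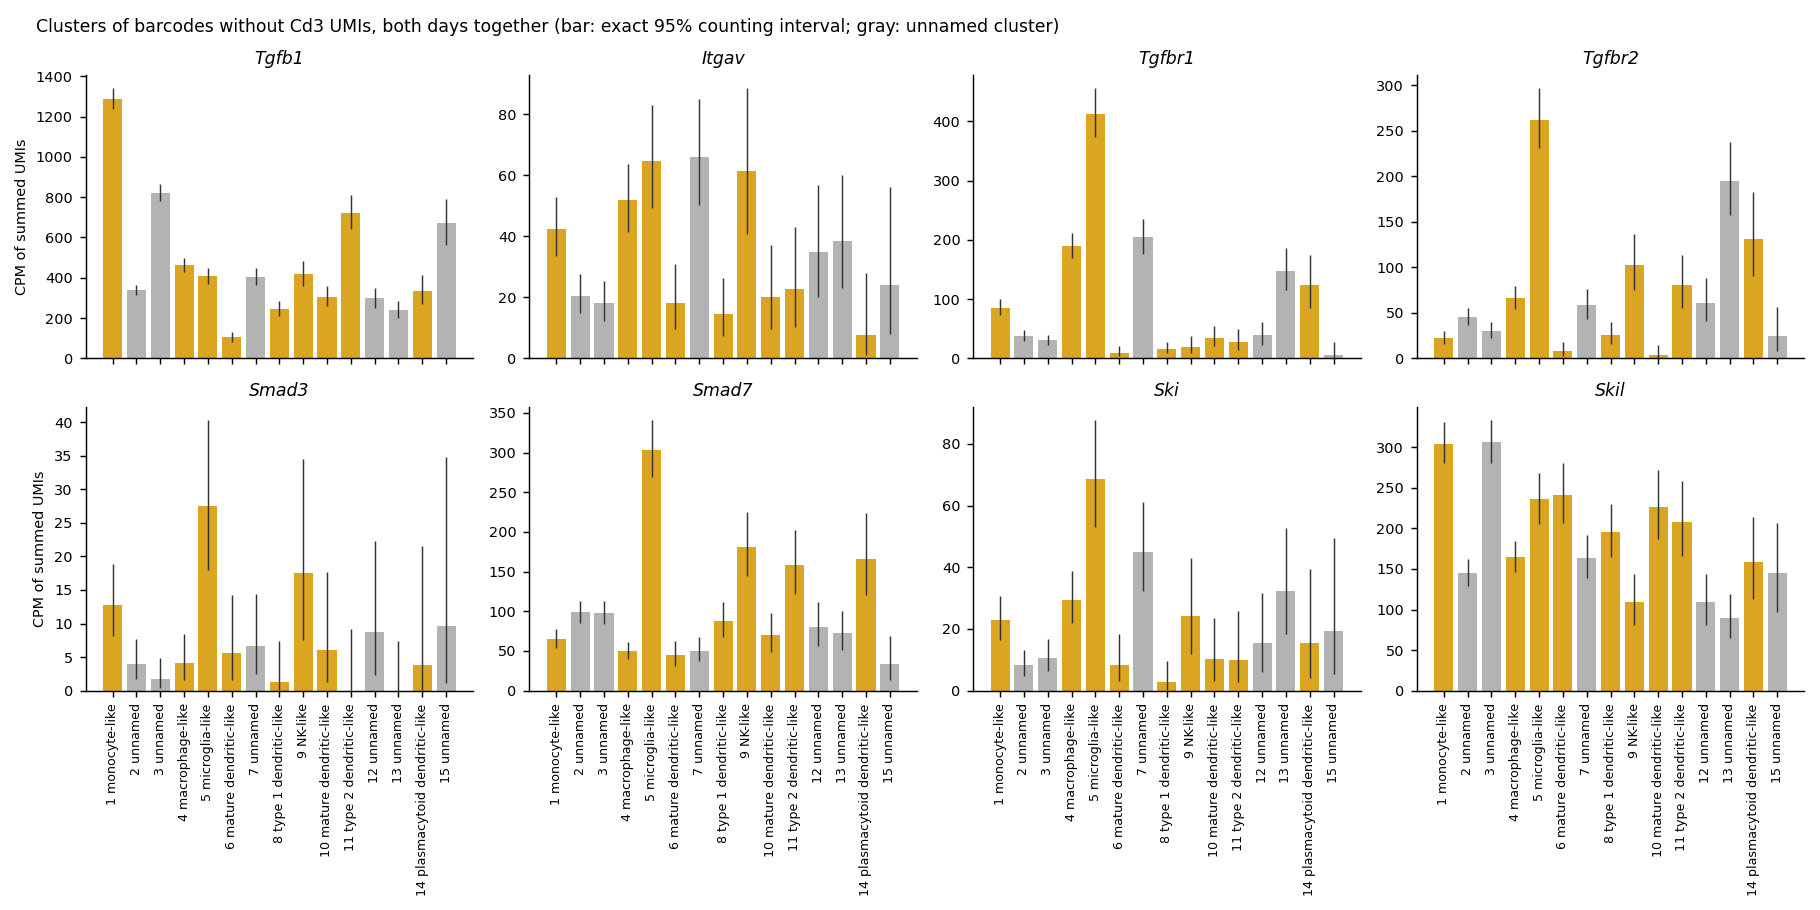
Levels in CPM (UMIs per 1000000, linear axis from 0) of the 8 genes in the 15 clusters of barcodes without Cd3, both days together, with exact 95% counting intervals (gold named, gray unnamed). Tgfb1 peaked in the monocyte-like cluster 1 (1289 CPM), and Tgfbr1, Tgfbr2, Smad3, Smad7 and Ski in the microglia-like cluster 5.

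Of 54 other genes of the pathway, in 7 lists of ligands and latency genes, integrin chains, receptors, SMADs, inhibitors, co-activators and response genes, 4 were called between the days in CD8 barcodes and 4 in CD4 barcodes. In CD8 barcodes 0 rose and 4 fell of 38 with enough UMIs, where 11.9% of all genes were called and 6.61% fell, so this count was near the background. Their median log2 ratio was -0.17. The 4 were the activator thrombospondin 1 (Thbs1, 11 and 5.87 CPM), the integrin chains Itgb1 (293 and 188 CPM) and Itgb3 (11.5 and 6.85 CPM), and Itgae, the residency integrin CD103 and a known TGF-beta target (25.3 and 13.8 CPM). In Pdcd1+Tcf7- barcodes, where Itgav rose, 0 rose and 5 fell of 31 (13.1% of all genes called, 8.32% down), among them Itgb1 (333 and 173 CPM), Itgae (35.8 and 14.1 CPM) and Pmepa1, a feedback inhibitor induced by the pathway (163 and 93.5 CPM). In Pdcd1+Tcf7+ barcodes 2 rose, Itgb5 and Tgfbi, and 1 fell, Furin, of 24 (11.7% of all genes called). With under 5 macrophage UMIs the 2 that rose had too few UMIs. In Pdcd1-Tcf7+ barcodes 0 rose and 2 fell of 31 (11.2% called), and in Pdcd1-Tcf7- barcodes 0 rose and 2 fell of 20 (13.0% called). In CD4 barcodes 2 rose, Lrrc32 (16.2 and 27.3 CPM), which encodes the latent TGF-beta carrier GARP, and Itgb8 (11.1 and 24.2 CPM), the beta 8 partner of alpha v. Id3 (37.9 and 19.8 CPM) and Junb fell there, of 39, where 12.2% of all genes were called, 6.59% up and 5.62% down. In Foxp3+ barcodes alone, Lrrc32 (0.34; -0.01 to 0.69) and Itgb8 (0.46; 0.03 to 0.91) were not called between the days. Both were called in that state with under 5 macrophage UMIs (14.9% of all genes called), and neither with under 0.5% myeloid UMIs (17.1% called).
With under 5 macrophage UMIs, 0 rose and 6 fell of 33 in CD8 barcodes (12.4% of all genes called, 7.3% down). Itgb1, Itgb3 and Itgae fell again. Furin, the protease that cuts the ligand precursor (35.6 and 22.0 CPM), Smurf1, a ubiquitin ligase of the pathway (11.1 and 7.19 CPM), and Pmepa1 (-0.64) were added. Thbs1 was left with 7 and 1 UMIs and could not be called. In Pdcd1+Tcf7- barcodes 6 of 24 then fell (14.2% of all genes called, 9.72% down), with Furin and Smurf1 added and Thbs1 again too sparse. In CD4 barcodes 2 rose and 3 fell of 27 (12.7% of all genes called, 5.75% up and 6.91% down). Lrrc32 and Itgb8 rose and Junb fell again. Tgfbi, a matrix protein gene induced by the pathway (38.1 and 22.8 CPM), and Cdkn1a, a cell cycle inhibitor (196 and 119 CPM), were added, and Id3 (29.8 and 22.5 CPM; -0.40, -0.83 to 0.02) was not called. With under 0.5% myeloid UMIs neither Tgfbi nor Cdkn1a was called there, and 2 rose (Lrrc32 and Itgb8) and 2 fell (Junb and Itgae, -0.88) of 24, where 13.1% of all genes were called. In CD8 barcodes 5 of 31 fell in that selection, without Smurf1, where 11.9% were called.
Smad2 and Smad4, the partners of Smad3, were not called between the days: Smad2 stood at 36.3 and 36.0 CPM in CD8 and 35.0 and 42.1 CPM in CD4 barcodes. Smad4 stood at 41.5 and 36.6 CPM in CD8 and 48.4 and 42.0 CPM in CD4 barcodes.

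Between CD8 states, Pdcd1+ barcodes had 2 of 33 pathway genes up and 5 down against Pdcd1- ones, where 10.4% of all genes were called, 7.57% up and 2.88% down. Those up were Itgb3 (log2 ratios 0.76 and 0.80) and Id2 (0.90 and 1.15), and those down were Eng, Smad1, Bambi, Nedd4l and Id3 (-1.66 and -2.26). Id2 and Id3 encode inhibitors of E proteins and are targets of the SMADs, and the 2 differed in opposite directions. With under 5 macrophage UMIs 1 was up and 5 down of 27, where 12.2% of all genes were called, 8.8% up and 3.36% down. Junb was added (-0.92 and -0.66), while Itgb3 (0.77 and 0.91) and Eng (-0.63 and -3.46) had under 100 UMIs on at least 1 day and could not be called. With under 0.5% myeloid UMIs 2 were up and 5 down of 27, where 12.8% of all genes were called: Itgb3 was up again (0.87 and 0.82), Tgif1 (-0.59 and -0.79) and Junb were added, and Eng and Nedd4l (-1.17 and -1.62) had too few UMIs. In Pdcd1+Tcf7- against Pdcd1+Tcf7+ barcodes Id2 rose (0.78 and 0.92) and Id3 (-2.52 and -3.03) and Tgif1 (-0.59 and -0.61) fell, of 26, where 4.24% of all genes were called.
Foxp3+ CD4 barcodes had 2 of 30 up and 1 down, where 3.87% of all genes were called, 2.07% up and 1.8% down. Lrrc32 was 38.7 against 5.44 CPM at day 13 and 49.0 against 10.1 CPM at day 19, and Itgae was 62.7 against 11.4 CPM and 41.9 against 9.07 CPM. With under 5 macrophage UMIs both had under 100 UMIs on 1 of the days and could not be called, while their ratios stayed large, at 3.13 (2.28 to 4.07) and 2.28 (1.66 to 2.93) for Lrrc32 and 2.57 (2.00 to 3.18) and 1.43 (0.76 to 2.12) for Itgae. Cdkn1a was called up in that selection (0.92 and 1.13), of 18 genes with enough UMIs, where 6.82% of all genes were called. With under 0.5% myeloid UMIs it was not called, and Itgb1 (down) was the 1 gene called of 16, where 5.79% of all genes were. Itgb1, a beta chain that also pairs with alpha v, was the one down, at 226 against 494 CPM and 145 against 395 CPM. Itgb8 was 24.3 and 33.5 CPM in Foxp3+, 4.72 and 16.7 in Foxp3- and 0.562 and 1.26 in CD8 barcodes, so Foxp3+ barcodes were highest for both Itgav and Itgb8. Against Foxp3- barcodes Itgb8 was not called, since its 64 against 26 UMIs at day 13 missed the minimum of 100. Itgb6, the other chain that activates the ligand with alpha v, had at most 1 UMI in any class.
CD4 against CD8 barcodes had 15 of 39 up and 0 down, where 18.4% of all genes were called and 13.3% up. With under 5 macrophage UMIs there were 5 of 30 up and 1 down, where 12.8% of all genes were called and 8.04% up (Lrrc32, Itgb1, Itgb3, Tgfbi and Cdkn1a up, Id3 down). Of the 15, Lrrc32, Itgb3, Tgfbi and Cdkn1a were thus called in both selections, and 11 lost the call. Of these, 9 had under 100 UMIs on at least 1 day and could not be called: Thbs1, Itgb5, Itgb8, Tgfbr3, Eng, Acvr1, Acvrl1, Bmpr2 and Id1. Itgb8 kept a large ratio (4.95 and 4.97), Tgfbr3 had 1.29 and 1.24, and Eng 1.49 and 0.36 (-0.65 to 1.27). The other 2 had enough UMIs and missed 1.5-fold on 1 day, Nrros (0.69 and 0.22) and the co-repressor gene Tgif1 (0.55 and 0.74). With under 0.5% myeloid UMIs there were 6 of 29 up and 1 down, where 10.4% of all genes were called and 6.68% up: Tgfbi was then too sparse, and Fkbp1a and Ube2o were added. Barcodes without Cd3 had 17 of 41 pathway genes up and 6 down, where 41.2% of all genes were called, 17.3% up and 24.0% down. Among those up was Nrros, which encodes the myeloid carrier of latent TGF-beta, at 215 against 60.5 CPM and 206 against 54.2 CPM. The T cell carrier gene Lrrc32 was among those down.

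Over 55 points, each 1 of the 7 T cell states in 1 contig set, the genes whose log2 levels went most closely with Itgav were Tigit (Pearson r 0.891), Il2ra (0.891) and Capg (0.883), of 8212 genes. Those closest to Smad7 were Klf2 (0.820), Bach2 (0.797) and Rapgef6 (0.776), and those closest to Smad3 were Ripor2 (0.790), S1pr1 (0.761) and Cyth1 (0.756). Tgfbr1 went with Slc29a3 (0.888), Cx3cr1 (0.879) and Zeb2 (0.873), Tgfb1 with Slc15a3 (0.907), Spint1 (0.902) and Spi1 (0.901), and Ski with Cx3cr1 (0.806), Zfhx3 (0.803) and Ctss (0.799). Skil went with Nr4a1 (0.895), Prkcd (0.884) and Snx20 (0.879), and Tgfbr2 more loosely with Osbpl5 (0.671), Fam102a (0.655) and Themis (0.645). Cx3cr1, Spi1 and Ctss are typical of myeloid cells, though the points are T barcodes, and Klf2, S1pr1, Ripor2 and Bach2 of quiescent T cells. Among the 8 genes themselves r was highest for Tgfb1 with Skil (0.786) and Tgfbr1 with Ski (0.775), and lowest for Tgfbr2 with Itgav (-0.463). The points share captures, depth and macrophage RNA, so these values are descriptions.

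The antibody panel of 138 tags was searched for the partners of these genes, and those given are CD61, the product of Itgb3, and CD103 and ITGAE, which both name the product of Itgae. CD61 stood at 3908 and 3991 per 1000000 tag UMIs in CD8 barcodes, 4275 and 5015 in Foxp3+ CD4 barcodes and 3882 and 3788 in barcodes without Cd3. CD103 stood at 5036 and 5201 in CD8 and 5021 and 5038 in CD4 barcodes. ITGAE stood at 10363 and 14341 in CD8 and 10174 and 9634 in CD4 barcodes. Its day-19 level reached 43528 in the 213 Pdcd1+Tcf7+ CD8 barcodes, where 1 barcode held 19609 of 25930 ITGAE UMIs, and without that barcode it was 11163 there and 10167 in all CD8 barcodes. As a check of the tags, CD8a was 2068 and 2244 in CD8 and 1889 and 1837 in CD4 barcodes, and CD4 was 709 and 682 in CD8 and 1017 and 1436 in CD4 barcodes. Tag and class thus went the same way for both, with a wider gap for CD4 than for CD8a. The CD8a gap was small beside its levels. Isotype control levels are not given here, and the part of background in the CD61, CD103 and ITGAE levels was not tested.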

How the data were processed

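Gene expression, antibody tags and TCR contigs were measured in 1 capture per day. The deposited matrices give a whole-number UMI count for each gene or tag in each barcode, before any normalization, and name Cell Ranger 4 per the file headers. The deposited contig tables give read and UMI counts for each TCR contig, of which the barcodes and clonotypes were used here. The submitters' processing notes name mm10, bcl2fastq 2.20, Cell Ranger 4.0.0, STAR 2.7.5c, Seurat and R 4.1.2. Reads of paralogs could not be checked, since alignments were not used here.

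The 8 genes, the pathway lists and the marker lists were chosen with earlier results of these data known. Barcodes were filtered, classed and summed as given above with Python 3.11.15, numpy 2.4.6, scipy 1.17.1 and pandas 2.3.3. Each sum was divided by its total gene UMIs, and ratios have exact 95% Poisson intervals for counting error only. A class with 0 UMIs of a gene has an exact 95% interval that starts at 0, as for Cd4 in day-13 CD8 barcodes (0 to 0.13 CPM). The 8 genes are all named, while other pathway genes are given as counts, and not every called one is named. Barcodes without Cd3 were normalized with scanpy 1.11.5, which also chose 2000 variable genes, from which the 8 genes and the pathway lists were removed. A nearest-neighbour graph on 20 principal components was then split by the Leiden method at resolution 0.8. A cluster was named from marker genes only. No doublet caller was run. Likeness between genes used log2(CPM + 10) over sums of at least 100000 UMIs and genes of at least 500 UMIs. The ratio and interval code was tested on simulated counts. Alternatives were other UMI minimums, median-of-ratios scaling, thinning, leaving out macrophage-rich, Cd3-negative, cycling or the 5% deepest barcodes, equal weights for contig sets, and leaving out each contig set. A limit of 0.5% myeloid UMIs was added after the data were seen. Contig sets are not matched to mice here.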

Additional observations from a re-analysis of the deposited data

Results flagged for a closer look

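Barcodes with a Cd3 UMI that lay outside the TCR contig tables, 3229 at day 13 and 1109 at day 19, enter none of the comparisons above, and each of the 8 genes was detected in them. They were deep, with median gene UMIs of 15447 and 23556, and 56.3% and 76.6% of them held at least 5 macrophage UMIs. Tgfb1 stood at 303.8 CPM at day 13 and 288.0 CPM at day 19, Tgfbr1 at 63.7 and 46.5 CPM, and Tgfbr2 at 96.3 and 93.0 CPM. Smad3 stood at 13.0 and 8.27 CPM and Smad7 at 159.4 and 144.7 CPM. Ski stood at 28.2 and 28.0 CPM, Skil at 141.4 and 107.0 CPM, and Itgav at 64.6 and 123.2 CPM. What set these values was not tested.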

How the results depend on the processing

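Under the 10 alternative settings, the 1 added later and the 8 runs that each left out 1 contig set, 1895 recomputed ratios of the 8 genes stayed within the counting interval of the reported ratio, 233 moved beyond it, and 0 called ratios turned their direction. The minimum of 20 UMIs per gene sets only which genes can be called, so its ratios stayed by construction. Median-of-ratios scaling lost the call of Smad3 in barcodes without Cd3 (38.6% of all genes called). In that comparison Smad7 was called down with at least 1000 gene UMIs, thinned, and without cycling barcodes. Itgav was called down there with at least 10000 gene UMIs and with contig sets weighted equally. With at least 10000 gene UMIs per barcode, the counts of called genes, each with the share of all genes called, were 3 for CD8 between days (Tgfbr1 and Smad3 added; 11.7%), 0 for Pdcd1+Tcf7- against Pdcd1+Tcf7+ (Itgav 0.53 at day 13; 3.33%), 1 for CD8 Pdcd1+ against Pdcd1- (Itgav 0.42 at day 13; 5.57%), 1 for Foxp3+ against Foxp3- (Tgfbr2; 2.34%) and 2 for the CD4 Pdcd1 split (3.21%). With at least 1000 gene UMIs the CD8 day count was 2 (12.5%). With a minimum of 20 UMIs per gene the Tcf7 split gave 2, with Smad3 (6.87%). Without cycling barcodes the CD8 Pdcd1 split gave 1 (Smad7 -0.55 at day 13; 7.42%) and the CD4 Pdcd1 split 0 (1.55%), and thinned to 5000 UMIs the latter gave 0 (1.46%). Without T barcodes of 5 or more macrophage UMIs the CD4 day count was 1 (12.7%), and without those of 0.5% or more myeloid UMIs it was 1 (13.1%) and the CD8 day count 2 (11.9%).

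Leaving out 1 contig set at a time gave 1 to 2 for CD8 between days (Tgfbr1 was added when set 3 of day 13 or set 1 of day 19 was left out, and Smad3 for set 4 of day 19), 2 to 3 for CD4 between days, 1 to 1 for the Tcf7 split and 2 to 2 for the CD8 Pdcd1 and the Foxp3 splits. It gave 0 to 1 for the CD4 Pdcd1 split, 4 to 5 for CD4 against CD8 (Ski added without day-19 set 2 or 3) and 3 to 5 for barcodes without Cd3 (Smad3 lost without day-19 set 3, Itgav added without day-13 set 2 or 3). Over these runs the share of all genes called was 10.3% to 13.5% for CD8 and 11.6% to 13.7% for CD4 between days, 3.82% to 5.08%, 9.47% to 10.8%, 3.23% to 4.29% and 1.19% to 1.89% for the Tcf7, CD8 Pdcd1, Foxp3 and CD4 Pdcd1 splits, 16.9% to 18.3% for CD4 against CD8 and 40.4% to 41.2% for barcodes without Cd3. No paired analysis was possible because the contig sets of the 2 days come from different mice, which concerns the comparisons between the days. Within a day, states were paired by contig set, as counts of sets with the same direction and without a test. Smad3 and Ski are limited by depth, at 2.05 to 28.7 CPM over the T cell states.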
